A study of Homo sapiens with 60 samples.

Results

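The comparison set A549 cells, a cell line from a human lung carcinoma, that had received 500 µg/mL of a hot-water ginger extract for 24 h against A549 cells that had received 20 µg/mL of the same extract. Its 12 libraries, of 60 in the series, were chosen by the plant and the dose in the sample labels. They are 3 libraries at the high dose of Zingiberis Rhizoma Recens (ZRR; fresh ginger, going by the name), 3 at the high dose of Zingiberis Rhizoma (ZR; dried ginger), 3 at the low dose of ZRR and 3 at the low dose of ZR. The cells of all 12 libraries had thus received an extract, and per the protocol the plant material of both gingers was dried before extraction. The codes of the 12 libraries begin with the same number, and those of the DMSO vehicle begin with a letter. The dose contrast therefore lies within one code, and vehicle values can only be set beside it. The vehicle is given as 0.1% DMSO in the sample labels and as 2% in the design text. Whether the replicates came from separate cultures is not in the labels. The p-values of the gene tests cover only the spread among replicate libraries, estimated over all 60 libraries, and this spread may be technical.

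Fresh and dried ginger rhizomes are used as separate crude drugs in East Asian medicine, and drying is known to turn part of the pungent gingerols into shogaols. The compounds in these extracts were not analysed here. Several of the gene programs described here have well-known triggers. The integrated stress response begins when kinases that sense amino acid shortage, misfolded protein or other stress slow translation, which favours production of the transcription factor ATF4. ATF4 then turns on genes of amino acid synthesis, uptake and tRNA charging. The aryl hydrocarbon receptor (AHR) is a transcription factor that many flat aromatic plant compounds bind, and it turns on cytochrome P450 enzymes of the CYP1 family.

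The high-dose libraries held 18131399 to 24950739 estimated counts and the low-dose libraries 20907667 to 22127351, and 17129 genes passed the filter on low counts. Levels are in CPM, counts scaled to TMM-adjusted library sizes, which allow a gene to be compared between libraries but not with another gene. Fold changes are log2 values of 500 over 20 µg/mL, given with their standard errors. The shared effect is the mean of the fresh and the dried ginger effect. A gene was called at a Benjamini-Hochberg adjusted p under 0.05 in edgeR's quasi-likelihood test. Markers of the A549 line were present in every library: its 7 detoxifying enzymes summed to 15300 to 17000 CPM at the high dose and to 15200 to 17800 CPM at the low dose, and 0 of the 7 were called. Markers of blood cells summed to at most 1.83 CPM at the high and 2.72 CPM at the low dose, with CD3E and HBB at 0. Those of fibroblasts summed to at most 6.5 and 7.28 CPM with DCN at 0, and those of endothelium to at most 0.248 and 0.286 CPM with KDR at 0. Alveolar type II markers summed to 20.2 to 25.9 CPM at the high dose and to 15.5 to 22.5 CPM at the low dose, with SFTPA1 at 0. Most of this sum was ABCA3, at 19.4 to 24.6 CPM at the high and 14 to 21.6 CPM at the low dose. ABCA3 was called higher in the shared effect (0.31 ± 0.09, adjusted p = 0.0187), a call lost in 6 of 20 alternative fits (adjusted p 3.65e-05 to 0.228).

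Among the low-dose libraries, 2 stood apart. Regressing log2 CPM on log2 transcript length within a library gave a slope of 0.893 in fresh ginger low-dose replicate 2 and 0.88 in dried ginger low-dose replicate 3, each over 3 median absolute deviations from the median of 60 libraries, 1.01. The high-dose libraries had slopes of 0.997 to 1.04 and the low-dose libraries of 0.88 to 1.04, a mean difference of 0.0471 (exact permutation test within each ginger, two-sided, p = 0.18, adjusted over 3 quality measures 0.54; the smallest p possible is 0.005). The same exact test gave adjusted p values of 0.97 for the library total and 0.968 for the mitochondrial share of counts, which averaged 10.1% at the high and 10.3% at the low dose. Shared fold changes were higher for longer transcripts across 17016 genes (Spearman correlation 0.308, over genes, which are not independent replicates). Without these 2 libraries and 1 outside the comparison with a similarly distant slope, called the far libraries here, the correlation was -0.0017, and with each library's slope as a covariate it was -0.041. Genes that rose had a median longest transcript of 4572 bases and genes that fell one of 2785 bases, against 3212 bases for all genes tested. For fresh ginger alone the correlation with length was 0.303 with all libraries and 0.109 without the far libraries, and for dried ginger 0.228 and -0.102. For fresh minus dried it was 0.0785 with all libraries and 0.176 without them. Counts without the far libraries are given beside those of all libraries for most lists.

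**Figure D1:**
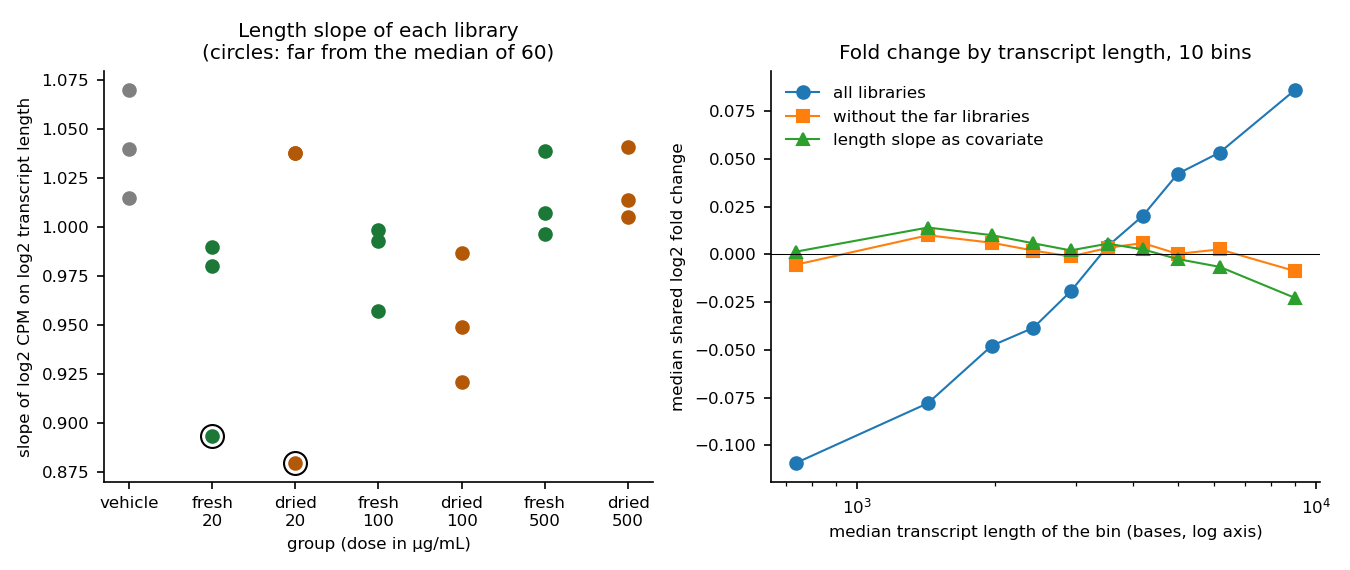
Left, how steeply log2 CPM climbed with log2 transcript length (slope), 1 point per library, by group, with the far libraries circled; the circled low-dose libraries lie at 0.893 and 0.88, under every high-dose library. Right, the median shared log2 fold change in 10 bins of transcript length (log axis, bases), from -0.11 in the shortest to 0.086 in the longest bin with all libraries, and close to 0 in the other fits.

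At 500 µg/mL, genes of amino acid supply and several AHR targets were higher with both gingers, and NR4A nuclear receptors, heat shock genes, fibrinogen genes and some matrix genes were lower. In the shared contrast 1933 of 17129 genes were called (11.3%), 1022 higher (5.97%) and 911 lower (5.32%). Most changes were small: the median size among called genes was 0.217 on the log2 scale, and 16 genes rose and 22 fell at least 2-fold. Without the far libraries 1222 genes were called, and with the 12 libraries fitted by themselves 651. A core of 971 genes, 519 higher and 452 lower, was called with all libraries, without the far libraries and with the slope as a covariate. In bulk RNA of this kind, fewer cells of a type and less RNA per cell cannot be told apart.

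Fresh ginger by itself called 715 genes (4.17%), of which 423 were higher (2.47%) and 292 lower (1.7%). For dried ginger the count was 795 (4.64%), with 421 higher (2.46%) and 374 lower (2.18%). Both gingers called 320 genes in the same direction (1.87% of genes tested), 195 higher and 125 lower, which is 44.8% of the fresh and 40.3% of the dried calls. Without the far libraries fresh ginger called 571 genes, dried ginger 669, and both 256. All 320 were also called in the shared contrast without the far libraries and with the covariate. The complement protease C1R, named after its values were seen, was called in opposite directions, at -0.20 with fresh and 0.19 with dried ginger. The fresh and dried contrasts share no library, and over all 17129 genes their fold changes had a Pearson correlation of 0.226 and a Spearman correlation of 0.388, a description across genes. Each contrast holds 1 far low-dose library, however. The deviations of these 2 libraries from their group means correlated at 0.418, so the agreement of the contrasts may in part come from them, which was not tested. Of the shared calls, 868 were called in neither ginger alone, 745 in 1 of them and 320 in both. In these same libraries, 585 genes (3.42%) had all high-dose libraries above all low-dose libraries within each ginger, and 421 (2.46%) had them below. Of the 1933 shared calls, 905 were separated in this way.

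**Figure D2:**
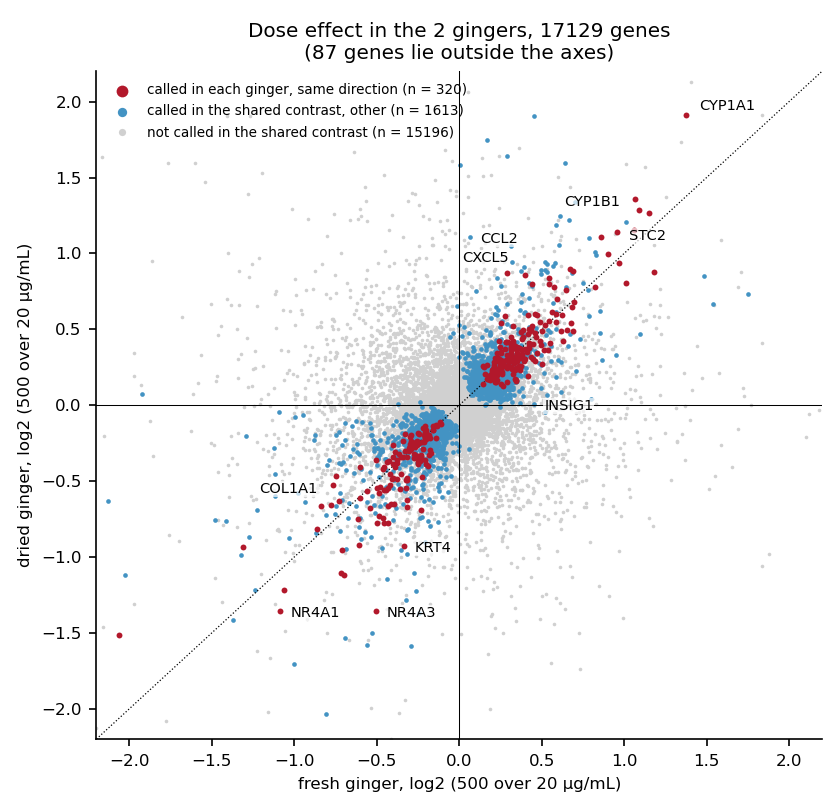
Log2 fold change of 500 over 20 µg/mL with fresh ginger (horizontal axis) and with dried ginger (vertical axis), 1 point per gene; red points are the 320 genes called in each ginger in the same direction, blue points the other 1613 shared calls and grey points the 15196 genes not called. Red points spread along the dotted line of equal change, CCL2 lies above it, and 87 genes lie outside the axes.

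The 10 largest rises and 10 largest falls were taken among genes called in both gingers. CYP1A1, CYP1B1 and TIPARP are AHR targets. STC2, ADM2, ALDH1L2 and TRIB3 belong to the integrated stress response list. The other rises were NIBAN1, a stress-induced regulator of translation, ULBP1, a ligand of the NKG2D receptor of natural killer cells, and GREM1, a secreted antagonist of bone morphogenetic proteins (BMPs). The falls were NR4A1, NR4A3 and NR4A2, the relaxin-family peptide INSL4, the retinoic acid binding protein CRABP2, the glucose transporter SLC2A3, the clock output factor DBP, the membrane protein SUSD2, the focal adhesion adaptor LIMS2 and the collagen COL1A1. For each of the 20 genes all 6 high-dose libraries lay on one side of all 6 low-dose libraries, and each was called under every one of the 20 alternatives run. The choice required separation within each ginger, so this is a description.

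**Figure D3:**
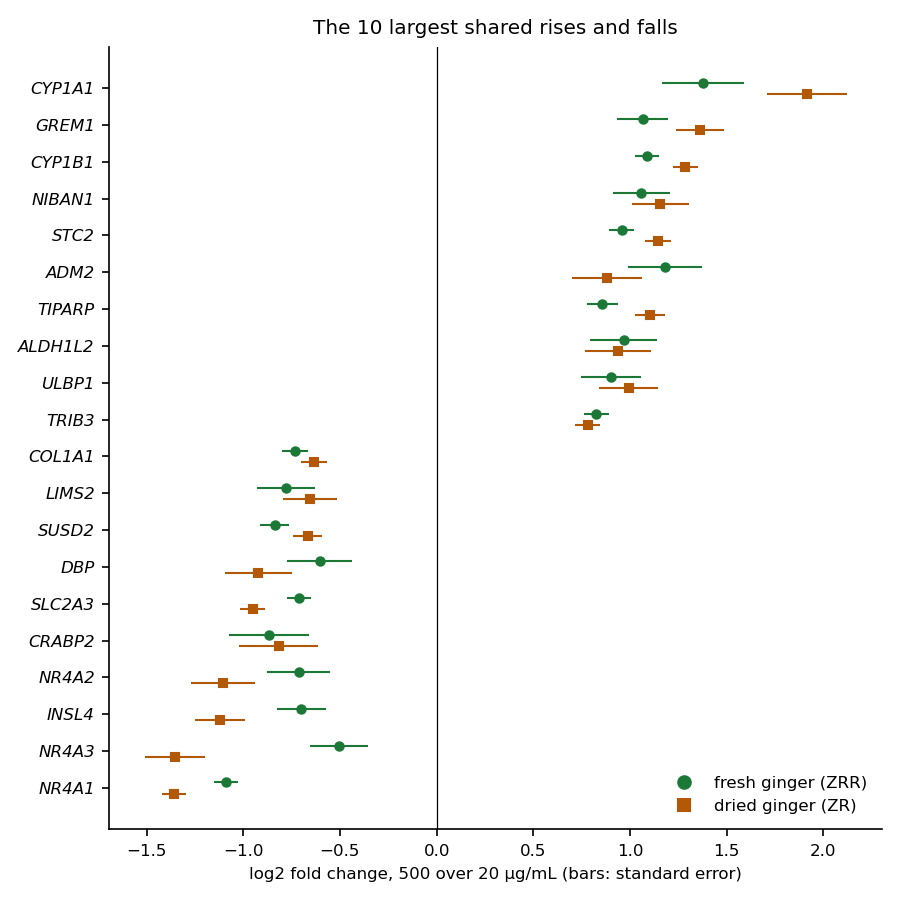
Log2 fold change of 500 over 20 µg/mL with its standard error (bars) for the 10 largest shared rises and the 10 largest falls, fresh ginger as circles and dried ginger as squares. The values run from 1.92 for CYP1A1 to -1.36 for NR4A1, both with dried ginger.

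Genes of the integrated stress response rose. Of 31 tested members, 23 rose and 0 fell in the shared contrast, with a median log2 fold change of 0.37 against 0.00078 over all genes tested. With each ginger alone 20 rose, and without the far libraries 23 did. STC2, a secreted glycoprotein hormone, had 54.2, 53.3 and 56.2 CPM at the high dose of fresh ginger and 55.7, 60.8 and 56.7 CPM at that of dried ginger. At the low dose it had 30.6, 25.6 and 28.2 CPM for fresh and 27.7, 27.3 and 23.4 CPM for dried ginger. Every high-dose library thus lay well above every low-dose library (1.05 ± 0.05, adjusted p = 6.99e-23). TRIB3, a pseudokinase that binds ATF4, stood at 129.8, 138 and 131 CPM for fresh and 112, 121 and 126 CPM for dried ginger at the high dose, against 68, 81.5 and 76 CPM for fresh and 66.5, 66.9 and 75.8 CPM for dried ginger at the low dose (0.80 ± 0.05, adjusted p = 5.62e-19). ALDH1L2, a mitochondrial enzyme of folate metabolism, ranged over 34.6 to 40.8 CPM (median 35.5) at the high dose, against 12.6 to 22.3 CPM (median 21) at the low dose. Its lowest values, 12.6 and 14.5 CPM, came from the far libraries, and it changed by 0.95 ± 0.12 (adjusted p = 1.15e-07). ADM2, a peptide hormone, ranged over 3.11 to 3.9 CPM, against 1.1 to 2.15 CPM (1.03 ± 0.13, adjusted p = 7.07e-08).

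Several enzymes of amino acid and one-carbon metabolism in this list rose. PSAT1, of serine synthesis, ranged over 494 to 534 CPM at the high dose, against 339.8 to 378 CPM at the low dose (0.55 ± 0.03, adjusted p = 4.47e-22). PHGDH, the first enzyme of serine synthesis, rose by 0.52 ± 0.05, the folate enzyme MTHFD2 by 0.41 ± 0.03 and the proline enzyme PYCR1 by 0.44 ± 0.03. CHAC1, which degrades glutathione, rose by 0.68 ± 0.06, the cystathionine synthase CBS by 0.69 ± 0.05 and the mitochondrial PEP carboxykinase PCK2 by 0.70 ± 0.05. SESN2 (0.61 ± 0.06) and DDIT4 (0.47 ± 0.04), stress-induced inhibitors of the growth kinase mTORC1, rose as well. PSPH, the last enzyme of serine synthesis, was not called, at 0.05 ± 0.04. Also among the 8 members not called was ATF4 itself at 0.15 ± 0.06 (adjusted p = 0.0733), whose control is known to act largely through translation. The related factor ATF3 was at 0.09 ± 0.07 and PPP1R15A, which reverses the translational block, at 0.07 ± 0.04. DDIT3, the transcription factor CHOP, was called at 0.28 ± 0.09 (adjusted p = 0.0385).

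ASNS, asparagine synthetase, is shown with its promoter because that promoter is known to bind ATF4. It stood at 203, 205 and 200.4 CPM at the high dose of fresh ginger and 191, 201 and 202 CPM at that of dried ginger. The low-dose libraries had 125, 137 and 142 CPM for fresh and 116, 116 and 133 CPM for dried ginger, with no overlap between doses (0.65 ± 0.04, 1.57-fold, adjusted p = 5.22e-18). The sequences are the 250 bases before the RefSeq start site of each gene (GRCh38.p14, 5′ to 3′ on the gene's strand), with the match to TGATGNAA, a core of the element that ATF4 binds with a C/EBP partner, in capitals. GARS1 and AARS1, of the tRNA synthetase list, carry it on the opposite strand. ASNS lies on the minus strand at chr7:97872409-97872658, with the match starting 68 bases before the start site. GARS1 lies on the plus strand at chr7:30594628-30594877, with the match at 33 bases, and AARS1 on the minus strand at chr16:70289507-70289756, with the match at 187 bases.
ASNS: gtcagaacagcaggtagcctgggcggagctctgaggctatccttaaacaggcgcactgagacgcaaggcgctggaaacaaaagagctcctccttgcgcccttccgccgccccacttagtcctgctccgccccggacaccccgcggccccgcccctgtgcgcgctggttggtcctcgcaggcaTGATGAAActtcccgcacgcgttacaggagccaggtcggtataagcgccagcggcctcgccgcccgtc
GARS1: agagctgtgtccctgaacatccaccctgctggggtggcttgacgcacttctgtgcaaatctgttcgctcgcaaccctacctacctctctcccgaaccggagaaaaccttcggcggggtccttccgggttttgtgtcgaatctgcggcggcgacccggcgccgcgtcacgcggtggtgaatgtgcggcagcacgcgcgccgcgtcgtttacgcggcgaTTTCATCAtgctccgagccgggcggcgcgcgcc
AARS1: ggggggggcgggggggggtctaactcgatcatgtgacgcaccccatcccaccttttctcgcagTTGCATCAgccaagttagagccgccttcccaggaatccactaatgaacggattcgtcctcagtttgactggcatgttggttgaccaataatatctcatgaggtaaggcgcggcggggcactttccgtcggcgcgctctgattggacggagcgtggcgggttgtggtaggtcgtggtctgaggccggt
On both strands, TGATGNAA occurred in 3.14% of 35116 RefSeq promoter windows of this length, or, counted per gene, in 3.89% of 27305 genes. It occurred in 5 of 24 members of the stress response list with a window, in 1 of 10 amino acid transporters and in 3 of 16 synthetases. Among members that rose, it occurred in 3 of 18, 1 of 8 and 3 of 9. ATF3 and JDP2, of the stress response list, carry it and were not called. A match describes letters in a window and no more.

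Genes that supply amino acids to translation rose as well. Of 11 tested amino acid transporters 9 rose and 0 fell (median 0.31), and 7 rose without the far libraries. The neutral amino acid carrier SLC1A4 ranged over 47.3 to 54.2 CPM (median 50.1) at the high dose, against 29.7 to 36.6 CPM (median 34.2) at the low dose (0.59 ± 0.04, adjusted p = 1.84e-15). SLC6A9, a glycine transporter, rose by 0.59 ± 0.07, SLC38A2, which takes up small neutral amino acids, by 0.29 ± 0.04, and SLC1A5, a glutamine carrier, by 0.23 ± 0.02. SLC7A11, the cystine transporter, which is also in the list of NRF2 targets, rose by 0.31 ± 0.05. SLC3A2, the heavy chain that carries several of these transporters to the membrane, was not called, at -0.01 ± 0.05.

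Aminoacyl-tRNA synthetases load tRNAs with their amino acid. Of 20 cytosolic members 11 rose and 0 fell (median 0.15), and 12 rose without the far libraries. GARS1, for glycine, had 289, 282 and 286 CPM for fresh and 289.8, 296 and 297 CPM for dried ginger at the high dose, against 215, 238 and 230.2 CPM for fresh and 219, 219.7 and 220.3 CPM for dried ginger at the low dose. The doses did not overlap (0.37 ± 0.03, adjusted p = 2.25e-15). AARS1 (alanine) rose by 0.32 ± 0.03, MARS1 (methionine) by 0.29 ± 0.03 and YARS1 (tyrosine) by 0.26 ± 0.03. The other 9 were not called, among them HARS1 (histidine) at -0.00093 ± 0.02, QARS1 (glutamine) at -0.01 ± 0.04 and KARS1 (lysine) at -0.02 ± 0.03.

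**Figure D4:**
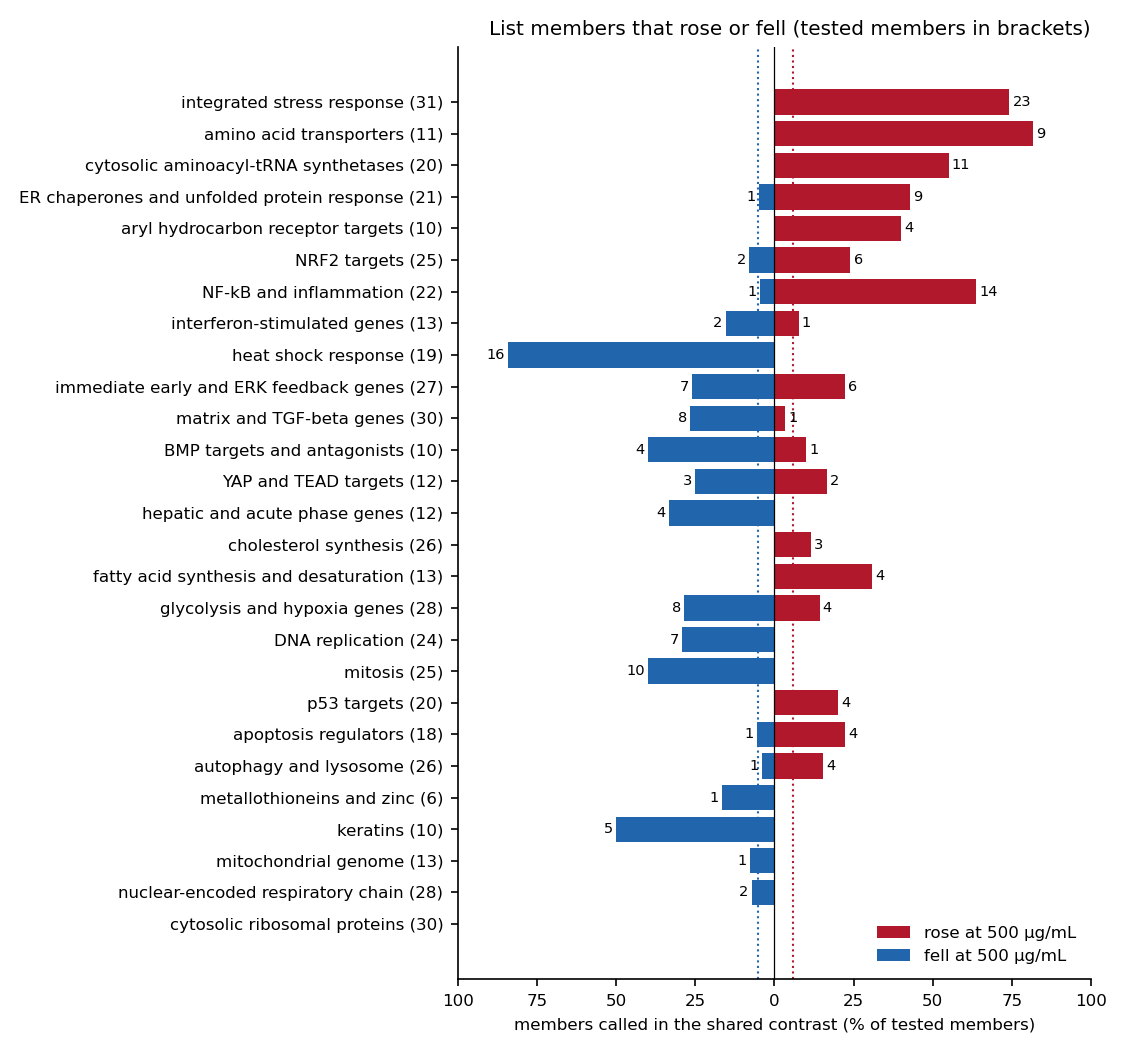
Members of each gene list called in the shared contrast as a percentage of its tested members, risen (red) and fallen (blue), with the number of genes beside each bar; dotted lines mark all genes tested (5.97% higher, 5.32% lower). Amino acid transporters have the highest share risen, with 9 of 11, and the heat shock response the highest share fallen, with 16 of 19.

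Among 10 tested members of the AHR list, 4 rose and 0 fell, with the same counts in each ginger alone and without the far libraries. CYP1B1, a P450 that oxidises polycyclic aromatics and oestrogens, stood at 125, 123 and 124 CPM at the high dose of fresh ginger and 160.3, 147 and 139.6 CPM at that of dried ginger. The low-dose libraries had 58.8, 55.5 and 60.2 CPM for fresh and 65.5, 63 and 54.7 CPM for dried ginger. The doses lay far apart (1.19 ± 0.04, 2.28-fold, adjusted p = 6.64e-26). CYP1A1, the classic AHR-induced P450, was scarce and ranged over 2.94 to 4.93 CPM (median 3.66) at the high dose, against 0.85 to 1.57 CPM (median 1.12) at the low dose (1.65 ± 0.15, 3.13-fold, adjusted p = 3.83e-12). TIPARP, an ADP-ribosyltransferase that restrains the receptor, stood at 55.9, 60.9 and 57.1 CPM for fresh and 78.1, 74.1 and 73.5 CPM for dried ginger at the high dose, against 35.6, 28.5 and 31.8 CPM for fresh and 35.3, 38.5 and 31 CPM for dried ginger at the low dose (0.98 ± 0.06, adjusted p = 5.62e-19). AHRR, the repressor of the receptor, rose by 0.79 ± 0.12 (adjusted p = 4.42e-06), though its high-dose values of 3.05 to 5.96 CPM overlapped the low-dose values of 2.43 to 3.31 CPM.

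Other members of the list did not pass the test. The receptor AHR was at -0.05 ± 0.06, its partner ARNT at 0.08 ± 0.07, and the dehydrogenases NQO1 and ALDH3A1 at -0.0048 ± 0.05 and -0.10 ± 0.05. UGT1A1 and UGT1A6, which share exons and may share reads, were at 0.26 ± 0.14 and -0.0029 ± 0.16. Fresh and dried ginger gave 1.09 ± 0.06 and 1.29 ± 0.06 for CYP1B1, 0.86 ± 0.08 and 1.10 ± 0.08 for TIPARP, and 1.38 ± 0.21 and 1.92 ± 0.21 for CYP1A1. The differences, fresh minus dried, were -0.20 ± 0.09, -0.25 ± 0.11 and -0.54 ± 0.30, with adjusted p values of 0.815, 0.815 and 0.993. The level of CYP1B1 increased over the doses: vehicle cells averaged 54.8 ± 1.54 CPM (SD, n = 3). At 20, 100 and 500 µg/mL the averages were 58.2 ± 2.43, 70.5 ± 3.57 and 124 ± 1.07 CPM for fresh ginger and 61.1 ± 5.66, 76.7 ± 3.93 and 149 ± 10.5 CPM for dried ginger (SD, n = 3 each).

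**Figure D5:**
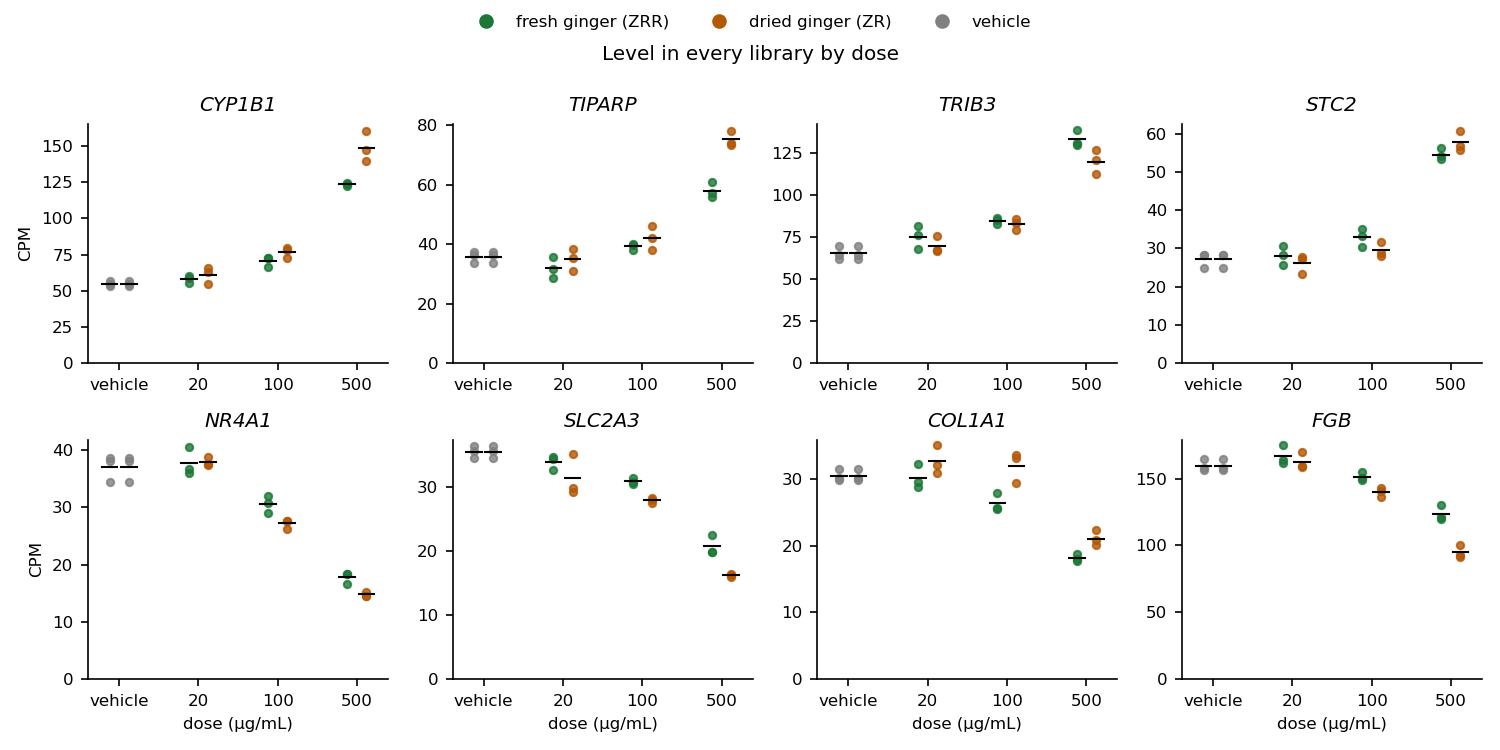
Level in CPM of 8 genes in every library (points; black bars, means of 3) with vehicle (grey) and at 20, 100 and 500 µg/mL of fresh (green) and dried ginger (orange); the same 3 vehicle libraries are drawn for each ginger. At 500 µg/mL CYP1B1, TIPARP, TRIB3 and STC2 are highest and NR4A1, SLC2A3, COL1A1 and FGB lowest, with NR4A1 at 14.5 to 18.4 CPM.

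NF-kB and inflammation genes rose mainly with dried ginger. NF-kB is a family of transcription factors, held inactive in the cytoplasm, that turn on chemokines, adhesion molecules and their own inhibitors. Of 22 tested members 14 rose and 1, the prostaglandin synthase PTGS2, fell in the shared contrast (median 0.22), with 12 rises and 1 fall without the far libraries. Dried ginger alone gave 18 rises and 0 falls (median 0.42), and fresh ginger alone 3 rises and 0 falls (median 0.05). The test of the difference between gingers called 5 members, CXCL5, BIRC3, CCL2, CXCL8 and IL32, all lower for fresh minus dried, against 0.0584% of all genes tested in that direction. CXCL5, a neutrophil chemokine, had 106, 114 and 102 CPM at the high dose of fresh and 160.1, 164 and 152 CPM at that of dried ginger, against 81.9, 84.7 and 77.6 CPM for fresh and 89.2, 84.4 and 88.7 CPM for dried ginger at the low dose. It rose with both, by 0.40 ± 0.05 for fresh and 0.86 ± 0.05 for dried ginger, and the difference was -0.47 ± 0.07 (adjusted p = 0.00117).

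BIRC3, a ubiquitin ligase that restrains cell death, had 34.6, 36.9 and 37.6 CPM for fresh and 51.4, 54.6 and 48.9 CPM for dried ginger at the high dose, against 35.8, 36.1 and 35.2 CPM for fresh and 39.5, 35.1 and 33.5 CPM for dried ginger at the low dose. Its high-dose libraries left the low-dose range with dried ginger, at 0.52 ± 0.06 against 0.03 ± 0.06 for fresh, a difference of -0.49 ± 0.08 (adjusted p = 0.00157). CCL2, a monocyte chemokine, had 8.04, 6.54 and 7.15 CPM for fresh and 14.2, 15.8 and 14.9 CPM for dried ginger at the high dose, against 6.82, 7.69 and 6.25 CPM for fresh and 7.16, 5.44 and 8.25 CPM for dried ginger at the low dose. The fresh ginger doses overlapped and the dried ginger doses did not (difference -1.04 ± 0.20, adjusted p = 0.00661, and 0.076 without dried ginger low-dose replicate 2). IRAK2, a kinase of interleukin-1 and Toll-like receptor signalling that is not in the list, rose by 0.29 ± 0.09 under fresh and by 0.87 ± 0.08 under dried ginger. Its difference of -0.58 ± 0.12 (adjusted p = 0.015) lost the call in 9 of 20 alternatives (adjusted p 0.00288 to 0.881). C3, the central complement protein, was at 0.24 ± 0.09 with fresh and 0.62 ± 0.09 with dried ginger. Its test of the difference missed the threshold (-0.39 ± 0.13, adjusted p = 0.473). The mitochondrial superoxide dismutase SOD2 rose by 0.22 ± 0.03 in the shared contrast.

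The promoters of CXCL5 and BIRC3 are shown because both genes differed between the gingers. In capitals stands the match to GGNNTTTCC, an NF-kB consensus without its first G (RefSeq, GRCh38.p14, 250 bases before the start site). CXCL5 lies on the minus strand at chr4:73998678-73998927, with the match starting 90 bases before the start site. BIRC3 lies on the plus strand at chr11:102317234-102317483, with the match on the opposite strand at 199 bases.
CXCL5: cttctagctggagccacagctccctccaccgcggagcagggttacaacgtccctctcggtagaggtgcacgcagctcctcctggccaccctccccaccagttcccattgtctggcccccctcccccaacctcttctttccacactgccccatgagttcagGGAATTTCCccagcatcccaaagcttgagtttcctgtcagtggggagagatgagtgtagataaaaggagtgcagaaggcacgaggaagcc
BIRC3: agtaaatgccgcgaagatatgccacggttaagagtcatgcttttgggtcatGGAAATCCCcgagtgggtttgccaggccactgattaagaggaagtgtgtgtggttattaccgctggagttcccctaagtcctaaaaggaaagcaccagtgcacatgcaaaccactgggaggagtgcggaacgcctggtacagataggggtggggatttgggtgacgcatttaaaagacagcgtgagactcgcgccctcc
On both strands GGNNTTTCC occurred in 5.48% of the 35116 promoter windows, or 6.69% of 27305 genes, and in 14 of 18 members of the NF-kB list with a window, a list of known targets of the factor.

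Among 13 tested interferon-stimulated genes 2 fell. OAS1, which senses double-stranded RNA, fell by 0.27 ± 0.05 on the log2 scale (13.6 to 19.6 CPM at the high dose, against 17.8 to 20.5 CPM at the low dose, which overlap). ISG15, a ubiquitin-like protein at about 1 CPM, was called at -0.54 ± 0.18 (adjusted p = 0.0468) and lost the call in 15 of 20 alternatives (adjusted p 0.00625 to 0.289), with 0.289 without the far libraries.

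All 3 NR4A genes, orphan nuclear receptors induced early by many stimuli, fell with both gingers. NR4A1 stood at 18.3, 18.4 and 16.6 CPM at the high dose of fresh ginger and 14.5, 14.6 and 15.2 CPM at that of dried ginger. At the low dose it stood at 36.7, 40.5 and 35.9 CPM for fresh and 37.4, 37.6 and 38.8 CPM for dried ginger. Its change of -1.22 ± 0.04 (0.429 of the low-dose level) had the smallest adjusted p of the named genes, 3.01e-26. NR4A3 ranged over 2.24 to 5.06 CPM, against 5.63 to 8.64 CPM (-0.93 ± 0.11, adjusted p = 8.55e-09). It gave -0.50 ± 0.15 for fresh and -1.35 ± 0.16 for dried ginger, a difference that missed the threshold (0.85 ± 0.22, adjusted p = 0.137). NR4A2 ranged over 1.42 to 2.42 CPM, against 2.69 to 4.01 CPM (-0.91 ± 0.12). Vehicle cells had 37 ± 2.28 CPM of NR4A1, and the 100 µg/mL dose 30.6 ± 1.55 CPM for fresh and 27.2 ± 0.822 CPM for dried ginger (SD, n = 3 each).

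The list of immediate early and ERK feedback genes moved in both directions. Of 27 tested members 6 rose and 7 fell (median -0.02), and without the far libraries 7 rose and 6 fell. The falls included the AP-1 subunits FOS (-0.55 ± 0.11) and JUNB (-0.29 ± 0.06) and the phosphatase DUSP1 (-0.24 ± 0.04). FOSL1, another AP-1 subunit, rose by 0.44 ± 0.05 (33 to 49.2 CPM at the high dose, against 26.3 to 31.7 CPM at the low dose), as did the ERK phosphatase DUSP4 (0.17 ± 0.02) and the ETS factor ETV5 (0.24 ± 0.03). EGR1 was at -0.22 ± 0.14 and not called. SGK1, a serum- and glucocorticoid-induced kinase outside the list, had 40.2, 39.4 and 39.1 CPM for fresh and 34, 33.2 and 34.6 CPM for dried ginger at the high dose, against 48.6, 50.6 and 48.5 CPM for fresh and 52.4, 51.4 and 53.5 CPM for dried ginger at the low dose. It fell with both gingers, and more with dried ginger (difference 0.31 ± 0.05, adjusted p = 0.00128).

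Heat shock genes, the chaperones that the factor HSF1 controls, fell. In the shared contrast 0 of 19 rose and 16 fell (median -0.17), and 10 fell without the far libraries. Fresh and dried ginger alone gave 10 and 6 falls. HSPA1A, an inducible HSP70, had 241, 213 and 264 CPM for fresh and 238, 251 and 286 CPM for dried ginger at the high dose, against 296, 328 and 323 CPM for fresh and 302, 316 and 365 CPM for dried ginger at the low dose. The doses did not overlap (-0.37 ± 0.05, adjusted p = 7.63e-08); HSPA1B, a near-identical copy with which reads may be shared, was at -0.35 ± 0.05. The cochaperones DNAJB1 and DNAJB4 were called at -0.20 ± 0.03 and -0.31 ± 0.04, and the small heat shock protein CRYAB at -0.65 ± 0.14. HSPA4 and HSPA4L, of the HSP110 family, were not called, at -0.06 ± 0.03 and 0.01 ± 0.05.

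Chaperones and sensors of the endoplasmic reticulum went the other way in part. Of 21 genes of the unfolded protein response 9 rose and 1, the lectin chaperone CALR, fell (median 0.08). Without the far libraries 7 rose, and with the 12 libraries fitted by themselves 3 did. In the contrasts of each ginger alone, 7 rose with fresh ginger and 1 with dried ginger. ERN1, the sensor kinase IRE1, rose by 0.33 ± 0.06, EDEM1, which hands misfolded glycoproteins to degradation, by 0.26 ± 0.05, and the cochaperone DNAJB9 by 0.31 ± 0.06. DNAJB9 was at 0.50 ± 0.09 with fresh ginger and, not called, at 0.11 ± 0.09 with dried ginger. Its test of the difference missed the threshold (adjusted p = 0.503). HERPUD1, of the degradation machinery, rose by 0.18 ± 0.04, a call lost with the 12 libraries fitted by themselves (adjusted p = 0.108; 5.11e-09 to 0.108 over 20 alternatives). HSPA5, the main chaperone BiP, was at 0.07 ± 0.03 and the transcription factor XBP1 at 0.07 ± 0.06, neither called.

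Matrix genes fell in part. Of 30 tested genes of the matrix and TGF-beta list 8 fell and 1 rose (median -0.05), and the same counts were found without the far libraries. COL1A1, a chain of type I collagen, had 17.8, 18 and 18.9 CPM at the high dose of fresh and 22.4, 20.1 and 20.8 CPM at that of dried ginger. At the low dose it had 29.6, 28.9 and 32.2 CPM for fresh and 35.1, 32.2 and 30.9 CPM for dried ginger. All high-dose libraries lay below all low-dose libraries (-0.68 ± 0.05, adjusted p = 6e-16). TIMP3, an inhibitor of matrix proteases, ranged over 4.4 to 5.74 CPM, against 7.11 to 9.31 CPM (-0.65 ± 0.07), and TGFBI, a matrix protein induced by TGF-beta, over 932 to 1033 CPM, against 1108 to 1207 CPM (-0.22 ± 0.02). LOXL2, which cross-links collagen, was the gene that rose, by 0.38 ± 0.04 (138 to 167 CPM, against 106 to 122 CPM). FN1 (0.11 ± 0.11) and THBS1 (0.05 ± 0.05), other known TGF-beta targets, were not called.

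BMPs are ligands of the TGF-beta family, and GREM1 is secreted and blocks some of them. GREM1 had 8.48, 8.23 and 8.38 CPM for fresh and 11.7, 12.2 and 11.5 CPM for dried ginger at the high dose, against 3.73, 4.24 and 4.01 CPM for fresh and 5.1, 4.27 and 4.39 CPM for dried ginger at the low dose. It rose 2.32-fold (1.21 ± 0.09, adjusted p = 9.86e-15), and of 10 tested members of the BMP list 4 fell. These were the transcriptional inhibitors ID2 (-0.25 ± 0.05), ID3 (-0.34 ± 0.07) and ID4 (-0.38 ± 0.08), which are known BMP targets, and the pseudoreceptor BAMBI (-0.25 ± 0.07). Without the far libraries 3 members fell, with ID2 at -0.15 and ID3 at -0.21. With the 12 libraries fitted by themselves 1 fell, with adjusted p values of 0.0664 for ID2 (1.72e-06 to 0.0664 over 20 alternatives) and 0.055 for ID3 (2.02e-11 to 0.055). In the contrasts of each ginger alone, 1 member fell with fresh ginger and 3 with dried ginger. ID2, ID3 and ID4 were not called with fresh ginger (adjusted p = 0.187, 0.141 and 0.222). Of 12 YAP and TEAD targets, genes of mechanical signalling, 2 rose and 3 fell (1 and 3 without the far libraries), among them the ankyrin-repeat gene ANKRD1 at -0.40 ± 0.07, the matricellular CCN2 at -0.23 ± 0.05 and the LIM protein AJUBA at 0.19 ± 0.03.

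The fibrinogen chains, liver proteins of blood clotting that A549 cells also express, fell together. FGB had 129.9, 121 and 120.0 CPM at the high dose of fresh and 100.5, 92.7 and 91.5 CPM at that of dried ginger. At the low dose it had 162, 175 and 164 CPM for fresh and 158, 159.6 and 169.7 CPM for dried ginger. Its fall was larger with dried ginger (-0.78 ± 0.05) than with fresh (-0.43 ± 0.05; difference 0.34 ± 0.07, adjusted p = 0.0122). FGA and FGG were called at -0.53 ± 0.03 and -0.49 ± 0.05 in the shared contrast, and for them the test of the difference missed the threshold (adjusted p = 0.193 and 0.284). In the hepatic and acute phase list 0 of 12 tested members rose and 4 fell, the last being the urea cycle enzyme CPS1 at -0.23 ± 0.06, a call lost with the 12 libraries by themselves (adjusted p = 0.0811; 2.22e-13 to 0.0811 over 20 alternatives). SERPINA1, a protease inhibitor, and the transferrin gene TF were not called, at -0.32 ± 0.28 and -0.73 ± 0.31.

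Keratins, the intermediate filaments of epithelial cells, gave 0 rises and 5 falls among 10 tested members, and 4 falls without the far libraries. KRT8 had 2898, 2822 and 2932 CPM for fresh and 2382, 2541 and 2636 CPM for dried ginger at the high dose, against 3269, 4052 and 3450 CPM for fresh and 3130, 3344 and 4051 CPM for dried ginger at the low dose. The highest low-dose values belong to the far libraries, and the change was -0.40 ± 0.05, or -0.29 without the far libraries (adjusted p = 2.24e-07 and 3.11e-07). Its partner KRT18, whose annotated span overlaps that of KRT8, fell by 0.33 ± 0.06 on the log2 scale and was at -0.21 without the far libraries (adjusted p = 0.00329). The 6 epithelial markers, which include both, summed to 6060 to 7300 CPM at the high dose and to 7560 to 9730 CPM at the low dose. EPCAM (-0.05 ± 0.11) and CDH1 (0.05 ± 0.07), adhesion proteins of the same list, were not called. KRT4 had 25.5, 23.1 and 25.6 CPM for fresh and 15.2, 14.9 and 15 CPM for dried ginger at the high dose, against 29.4, 33.2 and 31 CPM for fresh and 26.4, 29.9 and 29.5 CPM for dried ginger at the low dose (difference 0.60 ± 0.10, adjusted p = 0.00128). KRT17 was called at -1.57 ± 0.32 but lay under 1 CPM in all 12 libraries and may share reads with related keratins.

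Some sterol genes rose with fresh ginger. In the shared contrast 3 of 26 genes of cholesterol synthesis rose and 0 fell. Fresh ginger alone gave 7 rises and 0 falls (median 0.11), against 2.47% of all genes tested risen with fresh ginger, and dried ginger 0 rises and 0 falls (median -0.05). The test of the difference called 3 members, INSIG1, MSMO1 and SC5D, all higher for fresh minus dried, against 0.0817% of all genes tested in that direction. INSIG1, which retains the sterol sensor in the endoplasmic reticulum, had 52.8, 51.1 and 51.2 CPM for fresh and 40.4, 39.6 and 42.4 CPM for dried ginger at the high dose, against 34.6, 40.3 and 38.4 CPM for fresh and 39.2, 38.9 and 43.5 CPM for dried ginger at the low dose. Its doses separated for fresh ginger (0.45 ± 0.05) and overlapped for dried ginger (0.01 ± 0.05), with a difference of 0.44 ± 0.08 (adjusted p = 0.00188). The sterol reductase DHCR7 was at 0.28 ± 0.05 with fresh and 0.10 ± 0.05 with dried ginger. The demethylase CYP51A1 rose by 0.12 ± 0.03 in the shared contrast, a call lost in 2 of 20 alternatives (adjusted p 5.57e-05 to 0.113). For DHCR7 and CYP51A1 the test of the difference missed the threshold (adjusted p = 0.671 and 0.799).

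Genes of fatty acid synthesis gave 4 rises and 0 falls among 13 tested members, and 2 rises without the far libraries. In the contrasts of each ginger alone, 4 rose with fresh ginger and 1 with dried ginger. ELOVL6, which lengthens palmitate, rose by 0.28 ± 0.05 and the desaturase FADS1 by 0.23 ± 0.05. FADS1 was at 0.15 without the far libraries and lost its call with the 12 libraries by themselves (adjusted p = 0.0512; 2.8e-05 to 0.0512 over 20 alternatives). The desaturases SCD (0.23 ± 0.07) and FADS2 (0.12 ± 0.03) lost their calls without the far libraries (adjusted p = 0.166 and 0.0989; 2.05e-05 to 0.166 and 0.000658 to 0.151 over 20 alternatives). FADS2 was at 0.25 ± 0.04 with fresh and -0.01 ± 0.04 with dried ginger (difference 0.26 ± 0.06, adjusted p = 0.0382).

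SLC2A3, a high-affinity glucose transporter, had 19.9, 22.5 and 19.8 CPM at the high dose of fresh and 16, 16.3 and 16.4 CPM at that of dried ginger. At the low dose it had 32.7, 34.6 and 34.4 CPM for fresh and 29.2, 35.1 and 29.9 CPM for dried ginger, without overlap (-0.83 ± 0.04, adjusted p = 6.56e-20). Of 28 genes of glycolysis and hypoxia 4 rose and 8 fell, and 1 rose and 6 fell without the far libraries. The peptide hormone ADM fell by 0.29 ± 0.05 on the log2 scale, the angiogenic factor VEGFA rose by 0.21 ± 0.04, and SLC2A1, the main glucose transporter of most cells, was at 0.01 ± 0.02. NRF2 targets, the antioxidant genes, gave 6 rises and 2 falls among 25 tested members. The haem transporter SLC48A1 rose by 0.24 ± 0.03, GCLM, of glutathione synthesis, by 0.22 ± 0.03 and the drug exporter ABCC3 by 0.27 ± 0.05. When the length slope was a covariate, 13 members rose, and without the far libraries 6 rose and 0 fell.

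A minority of cell cycle genes fell, by little. Of 25 mitosis genes 0 rose and 10 fell (median -0.10). The falls numbered 7 without the far libraries, 4 with the 12 libraries fitted by themselves and 20 with the covariate. PLK1, a mitotic kinase, ranged over 172 to 189.5 CPM at the high dose, against 194 to 206 CPM at the low dose (-0.15 ± 0.02, adjusted p = 5.83e-06), and the kinase AURKA was called at -0.16 ± 0.03. Of 24 DNA replication genes 0 rose and 7 fell, with 4 falls without the far libraries and 2 with the 12 libraries by themselves; RRM2, of ribonucleotide reductase, was called at -0.14 ± 0.02. MKI67 and TOP2A, common proliferation markers, were not called, at -0.03 ± 0.14 and -0.03 ± 0.03.

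Of 20 p53 targets 4 rose and 0 fell. Among the rises SESN2 and GDF15 (0.37 ± 0.06), a stress-induced cytokine, are also in the integrated stress response list. CDKN1A, the classic p53-induced inhibitor of the cell cycle, was not called, at -0.01 ± 0.03. Of 18 apoptosis regulators 4 rose and 1 fell. The death receptor TNFRSF10B rose by 0.26 ± 0.04 and the BH3-only protein PMAIP1 by 0.35 ± 0.05, and the survival protein BCL2L1 fell by 0.14 ± 0.03 on the log2 scale, a call lost with the 12 libraries by themselves (adjusted p = 0.0577; 8.43e-05 to 0.0577 over 20 alternatives). The autophagy receptor SQSTM1 rose by 0.27 ± 0.04 (1009 to 1078 CPM, against 794 to 934 CPM), in a list of 26 autophagy and lysosome genes of which 4 rose and 1 fell (3 and 0 without the far libraries). Metallothioneins and the mitochondrial genome gave 0 rises and 1 fall each, of 6 and 13 tested genes. Of 28 nuclear-encoded genes of the respiratory chain 0 rose and 2 fell, and 0 fell without the far libraries. Cytosolic ribosomal proteins, whose transcripts are short, gave 0 calls among 30 members, with a median of -0.11 that was 0.05 without the far libraries.

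The dose effect itself differed between the gingers for 24 genes (0.14% of genes tested; 14 higher and 10 lower for fresh minus dried), of which 18 were also called in the shared contrast. Without the far libraries the count was 23. CD24, a surface glycoprotein, had 254, 242 and 237 CPM for fresh and 190.1, 196 and 193 CPM for dried ginger at the high dose, against 255, 286 and 249 CPM for fresh and 268, 260.1 and 296 CPM for dried ginger at the low dose. The dried ginger doses separated and the fresh ginger doses overlapped (-0.51 ± 0.05 and -0.11 ± 0.05; difference 0.40 ± 0.07, adjusted p = 0.0018). The 4 genes with the smallest p on the higher side were KRT4, SGK1, CD24 and INSIG1, and on the lower side CXCL5, BIRC3, CCL2 and IRAK2. These 24 calls rest on the spread estimated over all 60 libraries, where 955 genes had an unadjusted p under 0.05. With the 12 libraries by themselves edgeR called 0 genes, with 523 at an unadjusted p under 0.05, and with the 18 ginger libraries 0, with 675. A difference that missed the threshold does not show that the gingers acted alike.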

How the data were processed

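RNA of A549 cells was made into directional mRNA libraries and read as paired 100-base reads, per the labels' protocols. The authors deposited 1 table of estimated counts per Ensembl gene, not normalised, with 60675 genes in 269 libraries. Of its columns, 60 match labels of the series, and 209 were not used. FastQC 0.11.9, Trim Galore 0.6.5, STAR 2.7.3a, RSEM 1.3.3 and the build GRCh38 (hg38) are named in the submitters' processing notes, without their roles. No source used here names the annotation release or says how strand was treated in counting, so overlapping, antisense or near-identical genes may share reads. A name table gave symbols for 41209 identifiers and GENCODE 29 for another 15846, leaving 3620 unnamed (0.0579% of counts). Lengths are those of the longest GENCODE 29 transcript, known for 99.3% of genes tested, and promoters are those of RefSeq.

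Estimated counts were rounded to whole numbers. A robust quasi-likelihood model in edgeR 4.0.16 under R 4.3.3 (TMM, filterByExpr by group) covered all 60 libraries, with a mean for each group and 40 residual degrees of freedom. The contrasts were the mean of the high-minus-low differences of both gingers, each difference alone, and fresh minus dried. Standard errors were taken as the size of the log2 fold change over the square root of F. Replicates differed by more than sampling noise (chi-square per degree of freedom of at least 2.2), and 0 pairs were identical. Between low-dose replicates this value reached 23.6 for fresh and 36.8 for dried ginger. Between high-dose replicates it reached 3.92 and 5.32. The highest value of all groups, 39.0, lay outside the comparison. In simulated data for the shared contrast (17081 genes, 100 changed per fold), 68% of genes changed 1.5-fold and 90% of those changed 2-fold were recovered, with 7 other genes called. The simulated counts were drawn independently, with 1 spread per gene for all groups and without the length gradient of single libraries. They therefore cannot show how many false calls the real data hold.

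Named genes are the 10 largest shared rises and falls called in both gingers (mean log2 CPM of at least 1, libraries separated within each ginger), up to 4 called members with the smallest p of each of 33 lists, and 4 genes per direction of the difference between gingers. Other list members named were chosen after their values were seen. Some members of the lists are not reported here by name. The comparison, the lists and these rules were chosen with earlier results of these data known. The 20 alternatives were DESeq2's size factors, no filter, DESeq2 1.42.0 itself, the 12 or the 18 ginger libraries by themselves, a replicate block, the length slope of each library as a covariate, leaving out the 3 libraries far out on that slope, and leaving out each of the 12 libraries.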

Additional observations from a re-analysis of the deposited data

Results flagged for a closer look

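The dose effect differed between the gingers, by the test of that difference in edgeR, for 10 of the genes named, all values being fresh minus dried ginger on the log2 scale. It was -0.465 for CXCL5, -0.491 for BIRC3, -1.041 for CCL2 and -0.5814 for IRAK2, genes whose dried ginger effect was the higher one. It was 0.3433 for FGB, 0.5958 for KRT4, 0.3107 for SGK1 and 0.4003 for CD24, genes lower at the high dose of dried ginger than at that of fresh ginger. It was 0.4434 for INSIG1 and 0.2599 for FADS2, lipid genes called with fresh ginger and not with dried ginger. With the 12 or the 18 ginger libraries by themselves, none of the 10 differences was called (0 genes called in either fit).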

How the results depend on the processing

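The shared count of 1933 was 651 with the 12 libraries by themselves, 1103 with the 18 ginger libraries and 1222 without the far libraries. Leaving out 1 library in turn gave 1215 (without dried ginger low-dose replicate 3) to 2241, and 1277 without fresh ginger low-dose replicate 2. The fresh ginger count of 715 was 1593 with the length covariate, 147 in the 12 and 280 in the 18 libraries, and 419 to 763 with 1 library left out (460 and 436 without high-dose replicates 1 and 3, 419 without low-dose replicate 2). That of dried ginger, 795, was 1388, 264 and 435 in the same fits and 518 to 855 with 1 library left out (518 without high-dose replicate 1). For the difference between gingers, 24, these were 210, 0 and 0, with 112 without the filter and 12 to 27 with 1 library left out. It was 12 without fresh high-dose replicate 1 or dried high-dose replicate 2, 13 without fresh high-dose or low-dose replicate 3, and 14 without fresh high-dose replicate 2 or dried low-dose replicate 2. The overlap of 320 was 592, 85 and 157, and 229 to 326 with 1 library left out. Why the fits differ was not tested. Fits of fewer libraries have fewer degrees of freedom and also take the spread from those libraries alone.

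Replicate numbers did not pair the samples: deviations of same-numbered libraries of different groups correlated at -0.306 to 0.184. Those of differently numbered libraries correlated at -0.306 to 0.418, the highest between the 2 far low-dose libraries. With a replicate block the counts were 1885 shared, 704 fresh, 788 dried, 17 for the difference and 314 for the overlap. DESeq2 called 2010 shared genes, edgeR with its size factors 1940, without a filter 2203 and with the covariate 2422. Of 123 gene values reported, 88 kept direction and call in every alternative, 35 changed call in at least 1 and 0 reversed. At these depths genes under about 1 CPM rest on few reads.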

Other observations

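Several genes outside the lists, named after their values were seen, moved with dose in both gingers and were called under every alternative run. BCAT1, the cytosolic enzyme that starts the breakdown of branched-chain amino acids, averaged 158 ± 7.1 CPM at the high dose and 103 ± 9.1 CPM at the low dose (SD over 6 libraries each; shared log2 fold change 0.61 ± 0.05, edgeR adjusted p = 3.49e-12). TGFA, a ligand of the EGF receptor, averaged 7.48 ± 1.11 CPM at the high and 4.83 ± 0.508 CPM at the low dose (0.62 ± 0.08). The microtubule-associated NAV3 averaged 6.21 ± 0.947 CPM at the high and 3.57 ± 0.622 CPM at the low dose (0.79 ± 0.11).

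Among falls, the neuronal pentraxin NPTX1 averaged 187 ± 11 CPM at the high and 301 ± 30.3 CPM at the low dose (-0.68 ± 0.06, edgeR adjusted p = 1.62e-12). IL11, a cytokine of the interleukin-6 family, averaged 21.1 ± 1.22 CPM at the high and 32.1 ± 1.96 CPM at the low dose (-0.61 ± 0.05), and the stress-induced GADD45B 15.9 ± 0.836 CPM at the high and 23.5 ± 0.997 CPM at the low dose (-0.56 ± 0.05). The BMP ligand BMP6 (-0.61 ± 0.09) and the steroid sulfotransferase SULT2B1 (-0.64 ± 0.06) were lower as well.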
